A study of Mus musculus with 2 samples.

Results

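Atrial myocardium was described here as the 250 spots of a mouse heart section with the highest share of 4 transcripts of atrial muscle. The 4 are Myl7, the atrial regulatory myosin light chain, Sln (sarcolipin, a small inhibitor of the calcium pump SERCA), Myl4, the atrial essential light chain, and Mybphl, a myosin-binding protein H-like protein. A spot is a barcoded position on the array that can hold several cells or part of one. Heart barcodes with at least 2000 counts and 200 features were ranked by the summed counts of the 4 genes over the barcode's total, and the first 250 were taken, ties in file order. They were 250 of 3049 heart barcodes past that cut, of 4992 heart barcodes, and of 9984 barcodes in the series, and they were set against the remaining 2799. The series holds 2 libraries, 1 from a normal mouse heart and 1 from a normal mouse brain, each from a formalin-fixed, paraffin-embedded section 5 µm thick. Random primers copied total RNA inside the section, and the treatment field of both samples names a reverse transcription primer that lacks the second cell barcode. All spots described here come from the same heart section, so the atrial-marker spots and the remaining spots share genotype, age and handling, and strain and age are not given in the sources used here. With 1 heart library no difference below has a replicate check. No test of a difference between groups was run, and each interval is a 95% interval for counting error.

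The atria receive blood returning to the heart, and their muscle cells differ from those of the ventricles in contractile isoforms, in ion channels and in a secretory role. Atrial cardiomyocytes store atrial natriuretic peptide in dense granules and release it on stretch, which lowers blood volume and pressure. Their potassium channels of the GIRK family open in response to vagal acetylcholine, and T-box and COUP-TF transcription factors maintain the chamber's identity.

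Promoters of 3 genes high in the spots and of 1 that was low are printed to show what sequence the named genes start from. Each is the 250 bases before the annotated gene start in the RefSeq table for GRCm38.p6, an older build than that of the counts, read 5′ to 3′ on the gene's strand. Capitals mark matches, on either strand, to motifs of 5 kinds. The T-box site was searched as TCACACC, a core that T-box factors bind. For the NKX family of homeobox factors the letters were AAGTG. The core of GATA factors was taken as GATAA, and the TATA box of the basal promoter as TATAAA. The CArG box, bound by serum response factor, was searched by its usual consensus. The Nppa window lies at chr4:148000472-148000721 on the plus strand, Myl7 at chr11:5898783-5899032 on the minus strand, Mybphl at chr3:108364661-108364910 on the plus strand and Myl3 at chr9:110763428-110763677 on the plus strand.
Nppa: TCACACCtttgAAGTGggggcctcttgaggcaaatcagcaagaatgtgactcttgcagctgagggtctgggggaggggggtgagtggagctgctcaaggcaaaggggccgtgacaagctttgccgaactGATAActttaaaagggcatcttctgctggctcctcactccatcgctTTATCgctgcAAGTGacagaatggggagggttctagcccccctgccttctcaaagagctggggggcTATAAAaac
Myl7: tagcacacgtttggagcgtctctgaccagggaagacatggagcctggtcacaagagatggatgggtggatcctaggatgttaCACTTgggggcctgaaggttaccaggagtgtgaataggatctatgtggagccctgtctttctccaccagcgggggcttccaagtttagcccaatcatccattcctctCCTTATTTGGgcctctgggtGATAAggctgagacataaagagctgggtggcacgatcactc
Mybphl: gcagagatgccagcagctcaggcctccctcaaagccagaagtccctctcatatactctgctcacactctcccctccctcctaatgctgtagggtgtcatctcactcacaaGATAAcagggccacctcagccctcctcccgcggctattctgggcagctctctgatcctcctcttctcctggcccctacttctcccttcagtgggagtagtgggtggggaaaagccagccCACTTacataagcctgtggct
Myl3: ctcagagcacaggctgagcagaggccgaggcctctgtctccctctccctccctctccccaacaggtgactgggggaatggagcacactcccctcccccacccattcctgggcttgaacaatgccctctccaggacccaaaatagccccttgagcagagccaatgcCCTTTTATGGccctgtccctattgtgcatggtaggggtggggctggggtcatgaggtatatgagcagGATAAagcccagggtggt

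The Nppa window held 1 T-box site, 2 NKX cores, 2 GATA cores and 1 TATA box, and the Myl7 window 1 NKX core, 1 GATA core and 1 CArG box. Mybphl had 1 NKX core and 1 GATA core, and Myl3, the ventricular essential light chain, 1 GATA core and 1 CArG box. Of 32851 RefSeq promoters of the same length, 3.33% held the T-box site, 40.7% the NKX core, 22.6% the GATA core, 12.4% the TATA box and 1.47% the CArG box. No motif searched overlapped another in these 4 windows. A match describes letters only and was not set against any binding data.

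The spots were chosen by the counts of the 4 genes, whose values are a description with no support of their own. The spots had 1375 Myl7 counts, 286 Sln, 1449 Myl4 and 265 Mybphl, against 84, 27, 233 and 49 in the remaining spots. The leading spot had 60 counts of the 4 genes among 34029, the median member 10 counts, and 29 members a single count. At the threshold, the last spot inside had 1 marker count of 5200 (192 CPM of all counts) and the first outside 2 of 10438 (also 192 CPM of all counts), so the lower end of the group rests on single counts. Among the remaining spots 2471 had none of the 4 transcripts, and the highest had 7 counts.

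Each marker was also described in spots ranked without it. In the 250 spots ranked by Sln, Myl4 and Mybphl alone, of which 232 were in the group, Myl7 reached 764 CPM, against 7.79 CPM in the rest (98.1-fold, 81.9 to 118). CPM elsewhere is scaled to the counts outside ribosomal RNA, summed over the spots of a group. Ranked without it, Sln had 157 CPM and 2.01 CPM in the rest (78.3-fold, 54.7 to 115), Myl4 765 CPM and 17.6 CPM (43.5-fold, 38.3 to 49.4), and Mybphl 144 CPM and 3.61 CPM (39.9-fold, 30.1 to 53.7). Of the spots ranked without Sln, Myl4 and Mybphl, 244, 217 and 242 were in the group.

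The spots were deeper than the rest of the section at the median but not at the lower quartile (6297 counts against 6970). Their median was 14973.5 counts (range 2011 to 46668), against 10887 in the remaining spots (2001 to 69150), and 52 of the 250 and 339 of the 2799 lay under 5000 counts. Ribosomal RNA took 53.6% of counts in the atrial-marker spots and 57.9% in the rest, and the 13 mitochondrially encoded messages 2.54% and 3.68% of the other counts. The median number of genes per spot was 3756 against 2540, and 770 against 628 after every spot was thinned to 2000 counts. The heart library held 44768698 counts in all and the brain library 37300503, and both list the same 4992 barcodes, so shared barcodes do not mark shared cells.

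Genes that the ranking did not use followed the atrial label. Of 9035 features that reached 20 CPM in the atrial-marker spots or the rest, 214 were at least 2-fold higher in the atrial-marker spots (2.37%) and 170 at least 2-fold lower (1.88%), the size rule used throughout. Scaled to all counts including ribosomal RNA, where 5109 features reached 20 CPM, these were 209 (4.09%) and 82 (1.61%). Of 18 other atrial genes, 15 reached 20 CPM in a group, 11 were higher by that rule and none lower, with a median log2 ratio of 1.61, against 0.14 over all features tested, so log2 ratios are best read relative to that shift. Of 9 ventricular genes, 5 reached 20 CPM, 5 were lower and none higher, with a median of -2.04. A spot with fewer cells of a type and a spot with less of their RNA per cell cannot be told apart here.

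**Figure D1:**
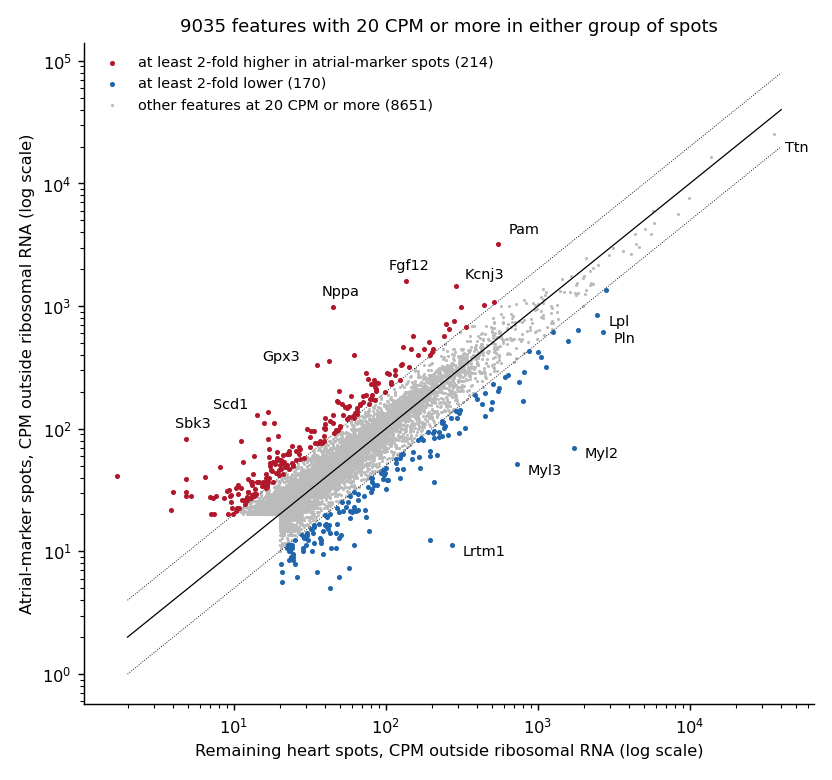
Each point is a feature with at least 20 CPM in either group, with its CPM outside ribosomal RNA in the 250 atrial-marker spots on the vertical axis and in the 2799 remaining heart spots on the horizontal axis, both logarithmic. Red points are at least 2-fold higher (214), blue points at least 2-fold lower (170), the solid line marks equal levels and the dotted lines 2-fold. Nppa stands 22.1-fold above the diagonal and Myl2 24.6-fold below it.

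Nppa, which encodes atrial natriuretic peptide, had the largest ratio of the features with at least 50 CPM once the 4 ranking genes are left out. It had 1754 counts in the atrial-marker spots and 755 in the rest, or 987 CPM (941 to 1034) and 44.7 CPM (41.6 to 48.0), a 22.1-fold difference (20.3 to 24.1). The lowest, median and highest counts in a spot were 0, 2 and 64 in the group, against 0, 0 and 19 in the rest. The ranges overlap, and 167 of the 250 spots had a Nppa count. That is 66.8% of the atrial-marker spots, against 16.5% of the rest, and after thinning to 2000 counts the shares were 35.2% (29.3 to 41.5) and 4.36% (3.63 to 5.18). In brain, thinned alike, the share was 0.0298%, so Nppa in the remaining heart spots lay above the level of a tissue without myocardium. An annotated gene, Gm13054, overlaps Nppa on the other strand, and whether counting used strand is not given.

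Other genes of the secretory pathway were uneven. Pam, the enzyme that amidates peptide hormones and an abundant membrane protein of atrial granules, had 3186 CPM in the spots and 549 CPM in the rest (5.81-fold, 5.62 to 6.0), with 0, 15.5 and 99 counts as the lowest, median and highest per spot, against 0, 2 and 40. Corin, the protease that processes the natriuretic peptide precursor, had 665 CPM and 499 CPM (1.33-fold), and Cpe, carboxypeptidase E, 180 CPM and 108 CPM (1.66-fold), neither past the size rule. Npr3, the clearance receptor for natriuretic peptides and also an endocardial gene, was 2.17-fold higher (124 CPM and 57.3 CPM). In all 3 of 15 genes of this list were higher and none lower, with 9 at 20 CPM or more in a group, with a median log2 ratio of 0.28, close to the shift of all features. Bmp10, a growth factor of the atria, was 6.22-fold higher (4.56 to 8.45) on few spots: its 72 counts lay in 32 spots, 23 of them in a single spot, and the 10 richest spots held 69.4%.

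Among the atrial transcription factors, Tbx5, a T-box factor of atria and conduction system, had 397 CPM in the spots and 62.0 CPM in the rest (6.41-fold, 5.82 to 7.06), with 0, 2 and 19 counts per spot against 0, 0 and 9. Nr2f2 (COUP-TFII) was 2.16-fold higher (77.1 CPM and 35.7 CPM). Nr2f1 (COUP-TFI) had 24 counts and 94 counts, 2.43-fold, under the floor of 20 CPM. Of 23 cardiac transcription factors, 14 of them at 20 CPM or more, Tbx5 and Nr2f2 were the 2 past the rule, and the list's median was -0.15, or -0.01 when scaled to all counts.

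Stard10, a lipid transfer protein, was 9.15-fold higher (7.6 to 11), at 129 CPM in the spots and 14.1 CPM in the rest, though Gm45344 overlaps it on the same strand and Gm20476 on the other. Dkk3, a secreted protein of the Dickkopf family, was 8.47-fold higher (7.59 to 9.44), at 356 CPM and 42.1 CPM. It was not confined to the group: the 50 remaining spots with 2 to 7 marker counts had 259 CPM of Dkk3. The last 50 ranks of the group had 194 CPM. The kinases Sbk3 and Sbk2 were 17-fold (12.9 to 22.6) and 3.95-fold higher, at 82.7 CPM against 4.85 and at 27.6 CPM against 6.98. Of the other listed atrial genes, Angpt1 (344 CPM and 200 CPM, 1.72-fold), Gja5 (connexin 40, 56.3 CPM and 44.6 CPM, 1.26-fold) and Kcnk3 (the TASK-1 potassium channel, 149 CPM and 137 CPM, 1.09-fold) were not past the rule. Kcna5, the channel of the ultrarapid potassium current, was the 1 listed atrial gene with a ratio under 1, at 14 counts and 219 counts (7.88 CPM and 13 CPM, 0.608, 0.327 to 1.04).

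The largest ratios outside the lists held further genes of muscle, metabolism and signalling. Fgf12, an intracellular FGF homologous factor that modulates voltage-gated sodium channels, had 1610 CPM and 136 CPM (11.8-fold, 11.2 to 12.5), with 0, 7 and 60 counts per spot against 0, 0 and 16. Gpx3, a secreted glutathione peroxidase, was 9.51-fold higher (333 CPM and 35 CPM), and Ptgfr, the prostaglandin F receptor, 7.04-fold (111 CPM and 15.7 CPM). Myl1, the essential light chain of fast skeletal muscle and a close relative of Myl4, was 7.14-fold higher (79.9 CPM and 11.2 CPM), and how the authors' counting split reads between such relatives is not given. Scd1, a fatty acid desaturase, was 8.16-fold higher, with 61.2% of its 242 counts in 10 spots. Cacna1h is taken up with the channels below.

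Myosin light chains of the ventricle were low in the spots. Myl2, the ventricular regulatory light chain, had 125 counts in the atrial-marker spots and 29193 in the rest, or 70.3 CPM (58.6 to 83.8) and 1728 CPM (1708 to 1748), 24.6-fold lower (20.6 to 29.5). Its lowest, median and highest counts per spot were 0, 0 and 9, against 0, 8 and 63. It had no count in 177 of the 250 spots (70.8%) and in 162 of the 2799 others (5.79%), and after thinning a count in 12% and 71.0%. Myl3, the ventricular essential light chain, was 14.1-fold lower (11.5 to 17.5), at 51.8 CPM and 731 CPM. Both have an annotated gene on the other strand, Ccdc63 for Myl2 and Pth1r for Myl3.

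Pln (phospholamban, the SERCA inhibitor of ventricular muscle) had 614 CPM in the spots and 2671 CPM in the rest, 4.35-fold lower (4.10 to 4.62), with 0, 3 and 23 counts per spot against 0, 11 and 85. Fhl2, a LIM-domain protein of the sarcomere and nucleus, was 3.05-fold lower (523 CPM and 1593 CPM), and Kcnip2, the KChIP2 subunit of the transient outward current, 3.15-fold lower (18.6 CPM and 58.6 CPM). The ventricular Iroquois factors were sparse: Irx3 had 4 counts and 275 counts, Irx4 4 counts and 175 counts, both below 20 CPM in either group. Irx5 (11 counts in the spots) and Hey2, a ventricular repressor of atrial genes (13 counts and 148 counts), had intervals of their ratios that include 1.

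Outside the list, Lrtm1, a leucine-rich repeat protein, was 24.3-fold lower (15.7 to 39.8), at 11.3 CPM and 274 CPM. It lies within Cacna2d3 on the opposite strand. Rpl3l, the striated-muscle form of ribosomal protein L3, was 7.77-fold lower (7.32 CPM and 56.9 CPM), Cavin4, a caveolar protein of muscle, 5.51-fold (11.3 CPM and 62.0 CPM), and Lbh, a transcription cofactor of the developing heart, 5.65-fold (36.6 CPM and 207 CPM). Myh7b, a slow myosin heavy chain, was 5.28-fold lower, Ivns1abp, a kelch-family protein, 4.70-fold (169 CPM and 794 CPM), and Ogdhl, an oxoglutarate dehydrogenase-like enzyme, 3.75-fold.

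**Figure D2:**
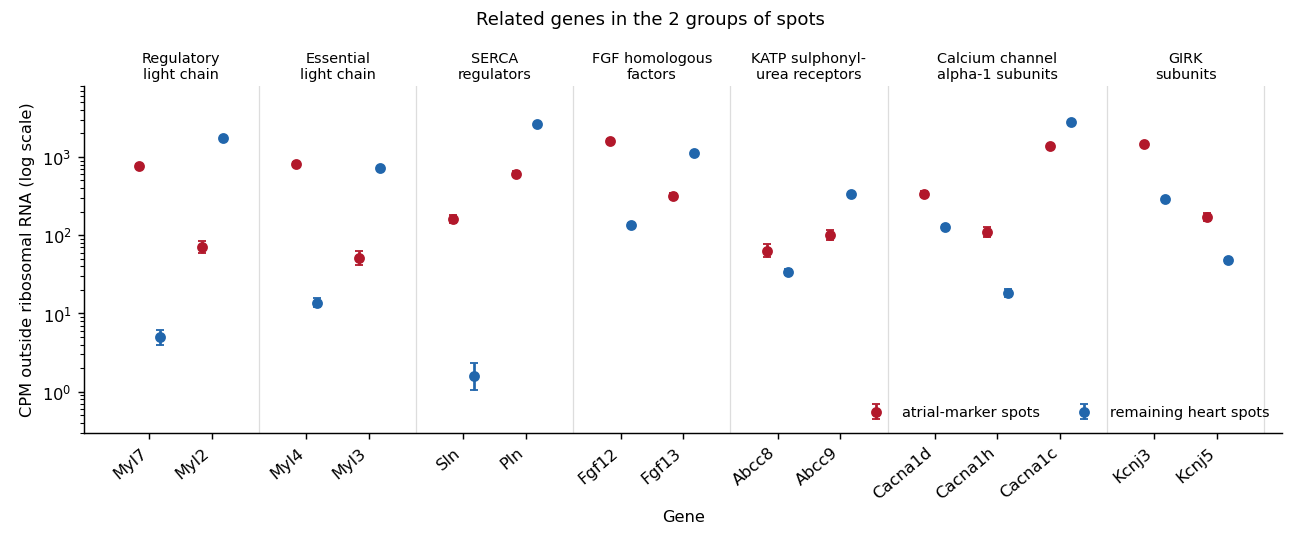
CPM outside ribosomal RNA, on a logarithmic axis, of related genes in the 250 atrial-marker spots (red) and the 2799 remaining heart spots (blue), with exact Poisson intervals that are narrower than most points. Myl7, Myl4 and Sln belong to the ranking and are shown for reference. The direction of those 3 was fixed by the choice of the spots. Levels are not corrected for length, so heights compare groups and not genes.

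Among genes that the ranking did not use, some relatives differed in direction. Fgf13, a relative of Fgf12 that was looked up after the values were seen, was 3.56-fold lower (317 CPM and 1129 CPM), the direction opposite to Fgf12. Of the sulphonylurea receptors that pair with ATP-sensitive potassium channels, Abcc8 (SUR1) had 63.6 CPM in the spots and 33.6 CPM in the rest (1.89-fold, 1.53 to 2.32), not past the rule, and Abcc9 (SUR2) 101.3 CPM and 332 CPM, 3.28-fold lower (2.83 to 3.82). Cacna1c, the main cardiac L-type calcium channel subunit, was 2.06-fold lower (1361 CPM and 2799 CPM). Cacna1d, the L-type subunit of atria and sinus node, was 2.64-fold higher (337 CPM and 128 CPM), and Cacna1h, a T-type subunit, 6.04-fold higher (111 CPM and 18.3 CPM).

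Both subunits of the cardiac GIRK channel were higher. Kcnj3 (GIRK1) had 1464 CPM and 289 CPM (5.07-fold, 4.83 to 5.32), with 0, 7 and 76 counts per spot against 0, 1 and 18. Kcnj5 (GIRK4) had 169 CPM and 47.8 CPM (3.54-fold, 3.09 to 4.05). Over 23 cardiac ion channel genes, Kcnj3, Kcnj5, Cacna1d and Cacna1h were higher and Kcnip2 and Abcc9 lower, and the median of 0.16 was close to that of all features. Kcnd2, a subunit of the transient outward current, had 417 CPM and 640 CPM, inside the 2-fold bounds.

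Sarcomere genes shared by both chambers had smaller differences. Of 24, none was higher and 5 were lower, with a median log2 ratio of -0.67. Ttn, the giant spring protein, had 25238 CPM in the spots and 36052 CPM in the rest (1.43-fold lower), and Myh6, the alpha myosin heavy chain, 7559 CPM and 9944 CPM (1.32-fold lower). The 5 were Acta1, skeletal alpha-actin (8.01-fold lower, 11 counts and 838 counts), Myh7, the beta myosin heavy chain (3.54-fold), Mybpc3, cardiac myosin-binding protein C (2.72-fold, 387 CPM and 1052 CPM), Lmod2, a thin filament nucleator (2.26-fold), and Tnnc1, troponin C (2.19-fold). Acta1 and Myh7 were also the 2 of 5 cardiac stress genes past the rule, while Ankrd1, of the same list, was 1.89-fold higher at 294 CPM and 156 CPM. In calcium handling, Pln and Cacna1c were the 2 of 19 past the rule. Ryr2, the calcium release channel, had 5957 CPM and 5706 CPM (1.04-fold), and Atp2a2, the SERCA pump, 4733 CPM and 5833 CPM (1.23-fold lower). Of 11 intercalated disc genes, the desmosomal Dsp (2.37-fold lower, 427 CPM and 1010 CPM) and Jup (2.02-fold) were lower, and Ctnna3 had 1670 CPM and 1443 CPM. That list's median was -0.13, or 0.01 when scaled to all counts.

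Fatty acid oxidation genes were the metabolic list with most members past the rule. Of 16, none was higher and 10 were lower, with a median log2 ratio of -1.13. Lpl, the lipase that frees fatty acids at the vessel wall, had 850 CPM in the spots and 2467 CPM in the rest (2.90-fold lower, 2.76 to 3.06), with 0, 5 and 28 counts per spot against 0, 10 and 89. Fabp3, the heart fatty acid-binding protein, was 3.09-fold lower (243 CPM and 750 CPM), Hadhb and Hadha, the trifunctional protein subunits of beta-oxidation, 2.99-fold and 2.58-fold, the fatty acid translocase Cd36 2.04-fold, and the dehydrogenases Acadm and Acadvl 2.69-fold and 2.66-fold. Of 5 muscle forms of mitochondrial proteins 4 were lower, Cox7a1, Ckmt2, Cox8b and Cox6a2, by 2.78-fold, 2.67-fold, 2.53-fold and 2.33-fold. Of 13 glycolysis genes Ldhb (2.28-fold) and Hk2 (2.15-fold) were lower, and of 15 nuclear genes of oxidative phosphorylation Cyc1 (2.55-fold) and Uqcrc1 (2.37-fold), with medians of -0.75 in both lists. All 13 mitochondrially encoded genes had ratios under 1 and none passed the rule, mt-Co1 at 5612 CPM and 8314 CPM. Of 16 ribosomal protein and translation genes, Eef1a1, the elongation factor, was 2.65-fold higher (508 CPM and 191 CPM), and the list's median was -0.13, or 0.01 when scaled to all counts.

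**Figure D3:**
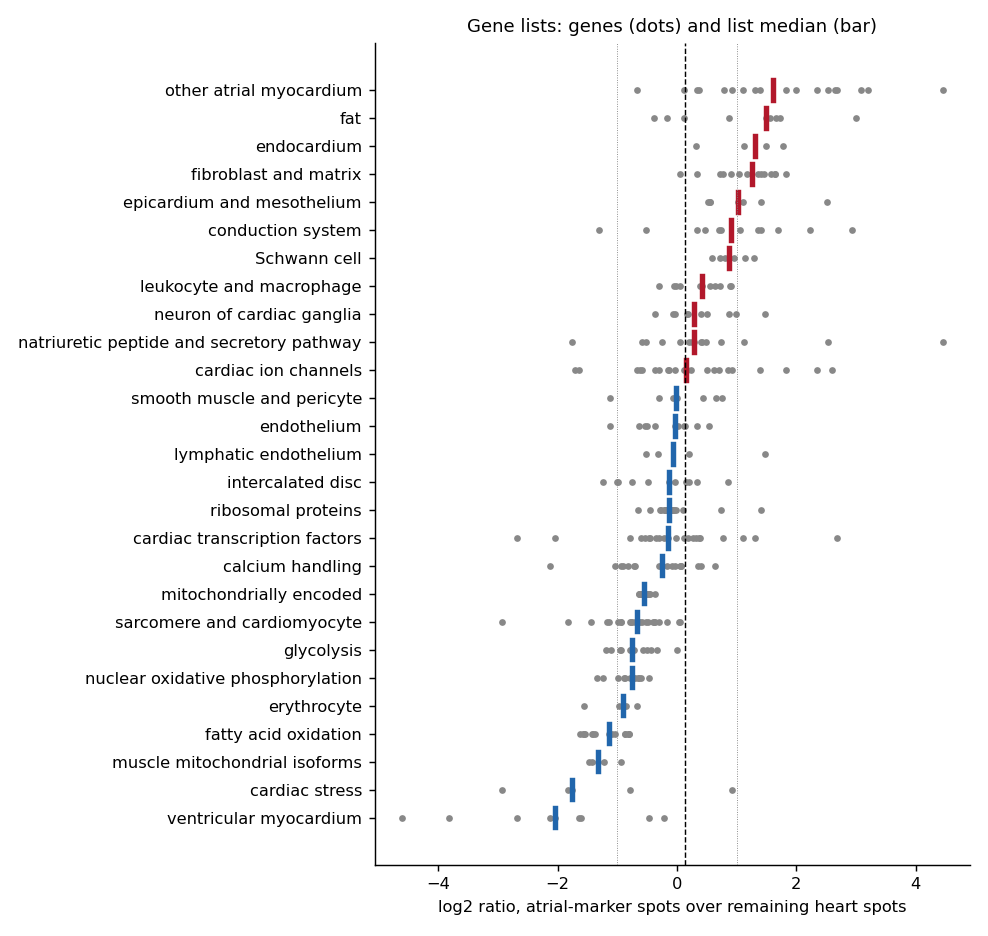
Log2 ratio of atrial-marker spots over remaining heart spots for the genes of each list (grey dots) with the list's median (bar, red above 0 and blue below), for lists with a gene at 20 CPM or more. The dashed line is the median of all features tested (0.14) and dotted lines mark 2-fold. The other atrial genes (1.61) lie at the top and the ventricular genes (-2.04) at the bottom.

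Conduction system genes were also higher, from few counts. Of 13, 10 reached 20 CPM, 5 were higher and none lower, with a median log2 ratio of 0.91. Shox2, a homeobox factor of the sinus node, had 54 counts in the spots and 67 in the rest, 30.4 CPM and 3.96 CPM (7.66-fold, 5.25 to 11.1), in 44 spots and with at most 5 counts in a spot. It overlaps Rsrc1 on the opposite strand. Cntn2, a contactin of conduction fibres, was 4.66-fold higher (53.5 CPM and 11.5 CPM), Tbx18, a factor of the sinus node head, 2.66-fold (34.9 CPM and 13.1 CPM), and the pacemaker channel Hcn4 2.08-fold (29.3 CPM and 14.1 CPM). Isl1 had 15 counts in 14 of the 250 spots and Tbx3 83 counts in 63 spots. The counts were spread over many spots, and no group of nodal spots was set apart.

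Markers of connective tissue and of the endocardium were higher in the spots than in the rest, and some of the epicardium. Of 14 fibroblast and matrix genes 9 were higher and none lower, with a median of 1.27 and a summed level of 3408 CPM in the spots and 1399 CPM in the rest. Col3a1, a fibrillar collagen, had 462 CPM and 130 CPM (3.56-fold, 3.28 to 3.86), with 0, 2 and 22 counts per spot against 0, 0 and 21, and Gsn (gelsolin) and Mgp (matrix Gla protein) were each 3.12-fold higher, at 977 CPM and 313 CPM and at 160 CPM and 51.2 CPM. Of 4 endocardial genes 3 were higher, Plvap (3.41-fold), Vwf (2.81-fold, 288 CPM and 102 CPM) and Npr3, with a summed level of 522 CPM and 232 CPM. Of 7 epicardial and mesothelial genes, of which 3 reached 20 CPM, Upk3b (5.71-fold, 39 counts and 65 counts) and Muc16 (2.04-fold, but 0.952 with 100 spots taken) were higher, at 196 CPM and 100.5 CPM in sum. Within the group Col3a1, Mgp and Vwf were not highest where Nppa was highest. The part of these cells in the results for other genes was not tested.

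Capillary genes did not share that direction. Of 11 endothelial genes none was higher and Fabp4, a lipid-binding protein of capillaries, was 2.19-fold lower (123 CPM and 268 CPM), and of 8 smooth muscle and pericyte genes Rgs5 was 2.17-fold lower (142 CPM and 309 CPM). Lyve1, a lymphatic and macrophage gene, was the 1 of 4 lymphatic genes past the rule, 2.78-fold higher on 92 counts. No leukocyte gene of 11 passed it, of which 7 reached 20 CPM (median 0.42, 647 CPM and 430 CPM in sum), nor any of 6 Schwann cell genes, of which 2 reached 20 CPM (0.88, 157 CPM and 97.9 CPM) or 11 genes of cardiac ganglion neurons, of which 1 did (0.29, 110.9 CPM and 100.96 CPM, with 1 gene at 0 in the spots). The median over fat genes was 1.49 on the log2 scale and 7 of 9 lay above 0, at 206 CPM and 167 CPM in sum, and 2 of them reached 20 CPM. Of these, Car3 was 8.0-fold higher on 69 counts, 22 of them in a single spot, but 1.85-fold, inside the bounds, with 100 spots taken, and Plin4 had 118 CPM and 133 CPM. Erythrocyte genes summed to 637 CPM and 1228 CPM, and Hba-a2 was 3.02-fold lower on 22 counts. Its ratio of 0.332 was 0.727 at a depth cut of 5000 counts and 0.951 with 500 spots taken, both inside the bounds. The globin genes are near-copies whose reads may be split between them. Genes of tissues next to the heart were near 0 in both groups: 30.9 CPM and 35.7 CPM for 8 skeletal muscle genes in sum, 10.1 CPM and 10.8 CPM for 6 lung genes and 6.75 CPM and 6.10 CPM for 4 thymus genes, with Scgb1a1 and Rag1 at 0 in the spots.

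Within the 250 spots the atrial profile weakened down the ranking. Nppa had 1347, 1512, 925, 420 and 280 CPM in 5 successive bins of 50 ranks, and 52.9 CPM in the 250 spots ranked next after the group. Myl2 ran the other way, at 23.2, 32.3, 37.0, 107 and 221 CPM, and 1339 CPM in the next 250. Ttn, which both chambers express, also declined, from 33296 CPM in the first bin to 10901 CPM in the fifth, and was 28002 CPM in the next 250. Over the same 5 bins Col3a1 had 346, 425, 508, 591 and 501.2 CPM, Vwf 179, 256, 358, 228 and 474 CPM, Mgp 102, 112, 178, 206 and 253 CPM, and Scd1 51, 39.8, 106, 299 and 299 CPM. Median depth declined as well, from 21284.5 counts in the first bin to 7960.5 in the fifth, and its part was not tested. The 29 spots with a single marker count had Myl2 at 748 CPM, against 30.4 CPM in the 126 spots with 10 or more.

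**Figure D4:**
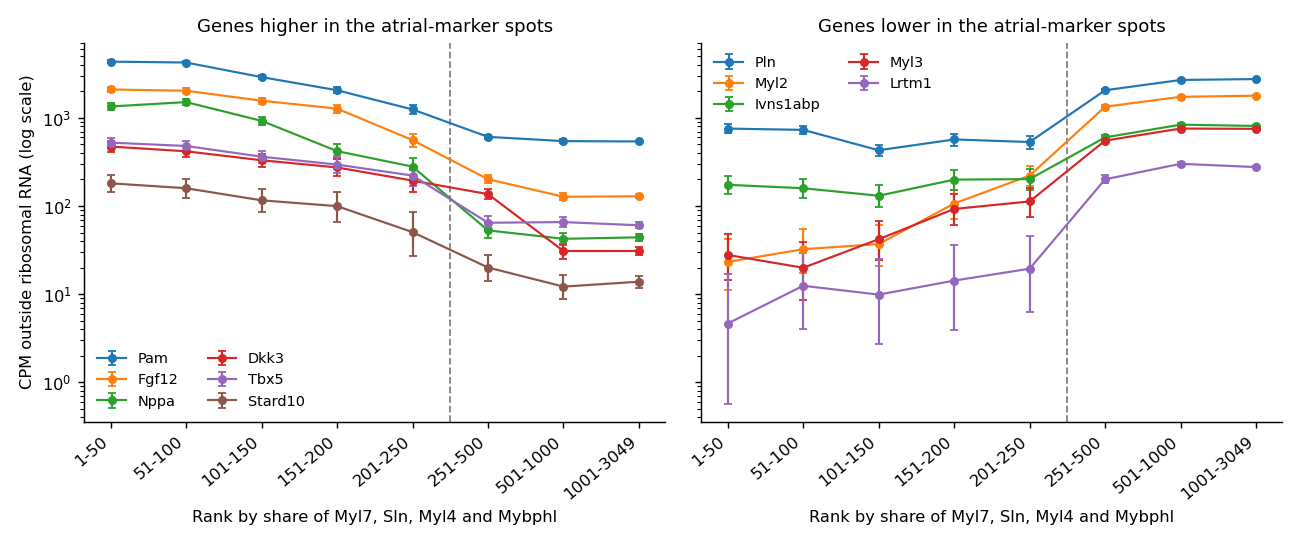
CPM outside ribosomal RNA, on a logarithmic axis, by rank of the spots on the share of the 4 markers, with exact Poisson intervals. The dashed line separates the 250 atrial-marker spots from the rest. Nppa declines to 280 CPM in the last 50 spots of the group and 52.9 CPM in the next 250 ranks, and Myl2 climbs to 221 CPM and 1339 CPM.

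Spot by spot, 207 of the 250 (82.8%) had both a summed level of the 18 other atrial genes above the 95th percentile of the remaining spots (2920 CPM) and a summed level of the 9 ventricular genes below their 25th percentile (5556 CPM). Of the remaining 2799 spots, 47 (1.68%) did so. The share was 124 of the 126 spots with 10 or more marker counts and 44 of the 80 with 1 to 4, whose median depth was 4253.5 counts, against 22827. The lowest, median and highest atrial sums were 232, 6641 and 18776 CPM in the atrial-marker spots and 0, 1552 and 8954 CPM in the rest, and the ventricular sums 0, 1202 and 12903 CPM and 0, 7298 and 19213 CPM. Both ranges overlap between the groups. Abundant genes made up most of both sums. In the atrial-marker spots Pam, Kcnj3 and Nppa had 5662, 2602 and 1754 of the 13883 counts of the 18 atrial genes. In the remaining spots Pln, Myl2, Fhl2 and Myl3 held most of the ventricular sum.

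**Figure D5:**
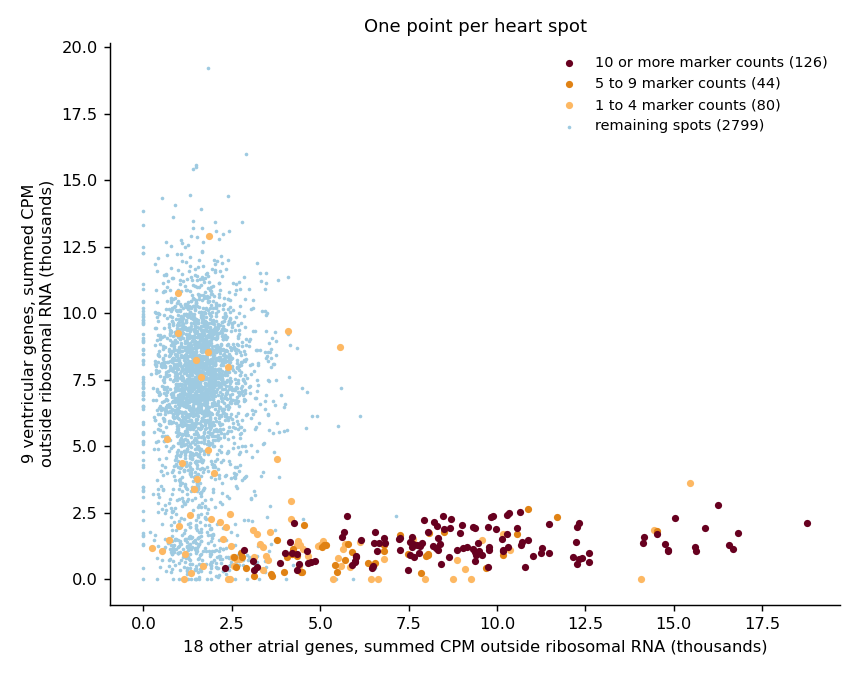
Each point is a heart spot past the depth cut, with the summed CPM outside ribosomal RNA of 18 other atrial genes on the horizontal axis and of 9 ventricular genes on the vertical axis, both in units of 1000 CPM. The 126 spots with 10 or more marker counts (dark red) all have ventricular sums of 2800 CPM or less, while part of the 80 with 1 to 4 counts (light orange) lie among the 2799 remaining spots (pale blue).

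Counts varied between the atrial-marker spots slightly beyond their depth for many features, and far beyond it for a small number. Variance relative to that of Poisson counts proportional to depth had a median of 1.11 over 8044 features with at least 40 counts, where 1 is counting noise. It was highest for Hbb-bs (75.4) and Ttn (38.4). It was 13.4 for Bmp10, 11.2 for Myh6, 10.97 for Ryr2, 10.8 for Nppa, 10.7 for Scd1 and 7.28 for the fatty acid synthase gene Fasn, named after its values were seen. The 10 richest spots held 12.2% of Ttn counts, 28.0% of Nppa counts, 68.2% of Fasn counts and 69.4% of Bmp10 counts. At equal relative spread the variance ratio is larger for genes with more counts, so it does not rank genes by unevenness.

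The spots were also set against the 250 remaining spots with the highest share of Myl2, whose median depth was 8698 counts. Nppa had 987 CPM in the atrial-marker spots and 45.4 CPM there (21.8-fold, 16.4 to 29.5), and Pam 3186 CPM and 529 CPM (6.03-fold). Dkk3 had 356 CPM in the atrial-marker spots and 8.33 CPM there (42.8-fold, 22.4 to 94.0), against 42.1 CPM in all remaining spots. Fgf12 was 19.1-fold, Ptgfr 24.0-fold and Mgp 9.59-fold higher than in those spots. These values share the atrial-marker spots with the comparison above.

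Ranking the brain spots by the same 4 genes gave no such profile. Of 3358 brain barcodes past the same cut, 191 (5.69%) had a count of any of the 4, with at most 3 in a barcode, so 59 of its first 250 had none. Between those 250 and the other brain spots Nppa had 2 counts and 10 counts (ratio 1.14, 0.122 to 5.37), Pam a ratio of 1.0 and Fgf12 0.803. There 10 of 7651 features were at least 2-fold higher (0.131%) and 15 at least 2-fold lower (0.196%). A ranking on so few counts could hardly separate groups of spots, so these shares are no background for those of the heart.

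Of features that are not annotated as protein-coding, the largest ratios at 50 CPM or more belonged to Gm40841 (4.42-fold higher, 59.6 CPM and 13.5 CPM), Gm26760 (2.91-fold), Ahnak2 (2.81-fold, absent from the annotation used for biotypes), Gm20186 (2.52-fold) and Gm17167 (2.49-fold). In the other direction stood ENSMUSG00000120364, a gene ID with no symbol in the files (15.7-fold lower, 12.4 CPM and 194 CPM), Gm50321 (3.86-fold), Gm20619 (2.98-fold) and Gm26862 (2.70-fold), with the mitochondrial tRNA gene mt-Tc just inside 2-fold.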

How the data were processed

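Each tissue gave 1 library. The deposited values are counts, a sparse matrix per section over 40276 features and 4992 barcodes. STARsolo and the mm39 build are the tool and genome that the submitters' processing notes name. Its version, merging of molecular tags, and strand and intron settings are not given in the sources used here, so each value is called a count and intervals assume separate molecules.

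Counts were summed over each group of spots and scaled to counts outside ribosomal RNA (39 features left out). Exact Poisson, conditional binomial and binomial intervals are at 95%. The size rule asks for a ratio of at least 2 and at least 20 CPM in the higher group. List medians use genes with 10 or more counts in all, 0.5 added to each sum. Thinning was random (seed 1). Spots with several cells were kept and no doublet caller was run. GENCODE M21 on GRCm38, which holds 35500 of 40253 gene IDs, gave biotypes, chromosomes and overlaps only. The members, the 31 gene lists and the named genes were chosen with earlier results of these data known. Genes named are the markers, all listed atrial and ventricular genes, and from other lists the 2 to 4 highest and those past the rule. To these come the 12 largest ratios each way at 50 CPM or more and the 5 largest among features not annotated as protein-coding. The latter include gene IDs absent from GENCODE M21. Fgf13, Fasn and the genes of the last section were added after their values were seen. The size rule was tested on simulated counts. Alternatives were the depth cut, number of spots, ranking genes, scaling, weighting and floors, plus 3 chosen after seeing the data. Python 3.11.15, NumPy 2.4.6, pandas 2.3.3, SciPy 1.17.1 and Matplotlib 3.10.9 were used. Spot positions were not used here, and some listed genes are not reported here.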

Additional observations from a re-analysis of the deposited data

Results flagged for a closer look

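The 4 markers were also counted in heart barcodes that did not reach the depth cut and so entered no comparison. In 1943 such barcodes they had 76 counts in 64 barcodes, or 174 CPM outside ribosomal RNA (137 to 218). Past the cut the 4 genes summed to 1899 CPM in the atrial-marker spots and 23.3 CPM in the remaining heart spots, groups split by these genes. The brain spots past the cut had 9.54 CPM. In the heart barcodes under the cut Nppa had 142 CPM and Myl2 1540 CPM. Those barcodes were not ranked, so their values are averages over all of them and mark no atrial part.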

How the results depend on the processing

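Under every alternative run, Nppa stayed higher in the atrial-marker spots (ratio 22.1) and Myl2 lower (ratio 0.0407), but their size depended on which spots were taken. The Nppa ratio was 19.3 with 100 spots and 11.8 with 500, 24.3 scaled to all counts, and 13.3 with each spot weighted equally. The Myl2 ratio was 0.0168 with 100 spots and 0.399 with 500, 0.0330 and 0.0817 at depth cuts of 500 and 5000 counts, 0.0292 with at least 2 marker counts, 0.0500 ranked outside ribosomal RNA, 0.0859 with equal weights, and 0.0539 and 0.0882 ranked without Myl7 and without Myl4. In 2 settings chosen after seeing the data, the 126 spots with 10 or more marker counts gave 27.1 for Nppa and 0.0176 for Myl2, and the 80 with at most 4 gave 7.75 and 0.189.

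The features at least 2-fold higher and lower (214 and 170) were 116 and 21 of 8917 tested with 500 spots (1.3% and 0.236%), 138 and 108 of 4618 at a floor of 50 CPM (2.99% and 2.34%), 670 and 368 of 17638 at 5 CPM (3.8% and 2.09%), and 1456 and 754 of 9806 in the 80 spots with at most 4 counts (14.8% and 7.69%), and the lower ones were 82 of 5109 scaled to all counts (1.61%). The causes of these shifts were not tested, apart from the floors, which admit fewer or more features. Some directions turned. Muc16 had a ratio of 0.952 with 100 spots. In the 80 spots with at most 4 counts Sbk2 had 0.688, Hba-a2 2.19 and Car3 0. Car3 had lower ratios in planned settings too, down to 1.85 with 100 spots, and Hba-a2 up to 0.951 with 500, both inside 2-fold. Of 30 list medians 13 had another sign in some setting. The erythrocyte median was 0.12 with 500 spots and 1.73 in those 80, and the thymus median -0.51 at a cut of 5000 and -0.25 in the 126 spots. The lung and airway median ran from -1.25 to 0.92 and that of calcium handling from -0.72 to 0.08. The leukocyte median was lowest at -0.02. Of 1584 values of 99 named genes past the rule over 16 settings, 1225 lay inside the counting interval of the main ratio, 355 outside it and 4 turned. The settings reuse many of the same spots, so that interval does not measure the spread between settings. No paired analysis was possible because there is 1 library per tissue and no replicate number. Spot positions, cell makeup and variation between animals could not be assessed, and levels of genes with under 20 CPM rest on few counts.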

Other observations

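Further features past the size rule, named after their values were seen, are given here as values with 95% intervals for counting error where a range is given. ENSMUSG00000121145, a gene ID with no symbol in the files, had 73 counts in the atrial-marker spots and 29 in the remaining spots (41.1 CPM and 1.72 CPM, 23.9-fold), a larger ratio than that of Nppa but under the 50 CPM asked of the named genes. Slc17a7, a vesicular glutamate transporter, had 49.0 CPM and 8.17 CPM (5.99-fold, 4.53 to 7.90), Rxfp1, the relaxin receptor, 86.7 CPM and 19.6 CPM (4.41-fold, 3.62 to 5.36), Nudt4, a diphosphoinositol polyphosphate phosphatase, 576 CPM and 152 CPM (3.79-fold), and Tmem163, a zinc transporter, 203 CPM and 49.6 CPM (4.10-fold). Among calcium-related genes, Cacna2d2, an auxiliary calcium channel subunit, was 3.33-fold and Slc24a2, a potassium-dependent sodium-calcium exchanger, 3.15-fold higher.

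Scd1, Fasn and Scd2 encode lipid-synthesis enzymes and were picked after their values were seen, with no list behind them. Scd1 had 242 counts in the atrial-marker spots and 282 in the remaining spots, Fasn 148 and 282, and Scd2 121 and 290, with ratios of 8.16, 4.99 and 3.97. Single spots reached 51 counts of Scd1 and 32 of Fasn. In the other direction stood Ptgds, prostaglandin D synthase (9 counts and 728 counts, 8.51-fold lower, 4.46 to 18.7), Gpr22, an orphan receptor of heart and brain (4.43-fold), Ckm, muscle creatine kinase (3.59-fold, 126 CPM and 452 CPM), and Idh2, mitochondrial isocitrate dehydrogenase (3.39-fold, 145 CPM and 490 CPM).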
